A study of Mus musculus with 10 samples.

Results

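The 9 genes described here encode the subunits of the hypoxia-inducible factors (HIFs) and the enzymes that couple them to oxygen. They were taken by gene symbol from the 26146 genes of the count table, and all 9 were found. *Hif1a*, *Epas1* and *Hif3a* encode the HIF alpha subunits, *Arnt* encodes their beta partner, *Egln1*, *Egln2* and *Egln3* encode the HIF prolyl hydroxylases, *Hif1an* encodes the asparaginyl hydroxylase known as factor inhibiting HIF, and *Vhl* encodes the subunit that recognizes hydroxylated HIF alpha for ubiquitination. Bulk polyadenylated RNA was sequenced from hematopoietic stem cells (HSCs), sorted as LSKCD48-CD150+ bone marrow cells, with a separate mouse for each library. The 5 *Cited2* CTL mice, labelled wildtype, were *Cited2* fl/fl without Cre, and the 5 *Cited2* CKO mice were *Cited2* fl/fl;*Vav-iCre*. Mice of both genotypes thus carried the floxed *Cited2* alleles and were 8 to 12 weeks old. *Vav-iCre* is active throughout the hematopoietic system from the time HSCs emerge, so the deletion was neither acute nor limited to HSCs.

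In the presence of oxygen the prolyl hydroxylases mark HIF alpha subunits, the VHL ubiquitin ligase binds the mark, and the subunits are degraded. In hypoxia the alpha subunits persist, pair with ARNT and recruit the coactivators CBP and p300 to genes of glycolysis, angiogenesis and iron handling, while factor inhibiting HIF blocks that recruitment when oxygen is present. CITED2 is itself induced by HIF and competes with HIF alpha for the same domain of CBP and p300, which is why the HIF genes are of interest in these mice. HSCs reside in a bone marrow environment low in oxygen, and most regulation of HIF alpha acts on the protein, which RNA-seq does not measure.

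HIF binds DNA at a short core that can read ACGTG or GCGTG, and *Egln1* and *Egln3* are known HIF targets. The ACGTG form alone was looked for, on both strands (ACGTG or CACGT), and is called the core below. GCGTG was not looked for. The search used the RefSeq promoter windows of GRCm38.p6, which run from 250 bases before to 50 bases after each start. Windows were found for 8 of the 9 genes, all except *Epas1*. ACGTG was present for *Hif1a* (3 matches, of which an overlapping pair on opposite strands), *Egln2* (3 matches in 1 of its windows), *Egln1* (1 match) and *Egln3* (1 match). This form was not present in the windows of *Arnt*, *Hif3a*, *Vhl* and *Hif1an*, which can still hold GCGTG. Of all 32851 windows 19.6% held ACGTG, and of the 10966 tested genes with a window 28.6% did. Some of the matches upstream of the start are shown with their surroundings, at least 1 for each of the 4 genes. They run 5′ to 3′ on the strand of the gene, with the ACGTG form on either strand in capitals and any GCGTG left unmarked.
*Hif1a* (chr12:73907714-73907754, plus strand, 135 bases before the start; the match reads as the core on both strands): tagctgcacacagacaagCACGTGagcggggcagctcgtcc
*Hif1a* (chr12:73907779-73907819, plus strand, 70 bases before the start): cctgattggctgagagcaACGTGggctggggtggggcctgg
*Egln1* (chr8:124949300-124949340, minus strand, 68 bases before the start): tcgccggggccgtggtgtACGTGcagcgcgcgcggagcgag
*Egln2* (chr7:27166828-27166868, minus strand, 48 bases before the start): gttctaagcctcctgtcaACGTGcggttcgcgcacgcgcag
*Egln3* (chr12:54204081-54204121, minus strand, 229 bases before the start): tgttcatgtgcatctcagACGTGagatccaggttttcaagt
These letters are a description of the windows, and no binding was measured.

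The libraries held between 3058690 and 4548795 counts. Values are given as CPM, the counts scaled to a common library total after TMM normalization, and as RPKM where genes are compared with each other, which divides the same value by gene length. *Cited2*, the deleted gene, was expressed at 101, 171, 162, 222 and 160.2 CPM in libraries CTL 1 to CTL 5. It was at 3.80, 4.21, 5.00 and 8.30 CPM in CKO 1, CKO 2, CKO 4 and CKO 5, but at 120.1 CPM in the library labelled CKO 3, which goes against its label. This library was kept in its labelled group, and the differences of the 9 genes, of the lists and of the named list genes are also given without it. With it included, *Cited2* itself was not called (log2 fold change -2.51, adjusted p = 0.328 in edgeR and 0.164 in DESeq2). HSC markers were high in every library (10 of 10 detected, summed 2553 to 2911 CPM in CTL and 2280 to 2559 CPM in CKO). Markers of other cell types were present at several levels in both genotypes. The T cell list (5 genes) summed to 5.02 to 9.85 CPM in CTL and 3.23 to 12.3 CPM in CKO, with the CD3 genes each at a mean under 1 CPM. Of B cell markers, *Cd79b* was at 56.4 and 55.4 CPM, while *Cd79a*, *Ebf1* and *Pax5* were each at a mean of at most 3.14 CPM. The erythroid list (7 genes in the table) summed to 43.6 to 108 and 42.8 to 61.5 CPM, with the globin genes at a mean of at most 3.49 CPM. The granulocyte-monocyte list (8 genes) summed to 396 to 765 and 374 to 599.8 CPM, led by *Lyz2* (228 and 226 CPM), and *Mpo* ranged from 6.18 to 189.7 CPM over the libraries. The megakaryocyte list (6 genes) summed to 529 to 647 and 522 to 659 CPM. The endothelial list (8 genes) summed to 584 to 638 and 574 to 668 CPM, from *Eng* (299 and 255 CPM), *Tek* (117 and 149.9 CPM), *Pecam1* and *Emcn*, which HSCs also express, with *Cdh5* at 1.90 and 1.68 CPM. The stromal list (6 genes) summed to 36.6 to 58.5 and 32.5 to 65.5 CPM, highest in the library labelled CKO 3. In none of these lists was a gene called by edgeR, and the ranges of the genotypes overlapped. Transcripts of *Cd48*, whose protein the sort selected against, were at 21.6 CPM in CTL and 49.0 CPM in CKO. They passed edgeR's test as higher, against 0.120% of all tested genes called higher. *Cd48* was the single called gene among 3 markers of multipotent progenitors (summed 493 to 591 CPM in CTL and 501 to 549 CPM in CKO). The other markers of this list had lower means in CKO, *Flt3* at 123 and 96.0 CPM and *Cd34* at 390 and 380 CPM. The part of such cells in the values below was not tested. In such bulk samples fewer cells of a type and less RNA per cell cannot be told apart.

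No gene among the 9 differed between the genotypes past the threshold. The threshold was an adjusted p under 0.05 together with a change above 20%, in edgeR (quasi-likelihood F test, p-values adjusted by Benjamini and Hochberg) over the 14165 genes that passed the filter on low counts. All 9 genes passed that filter. The background was low, since 0.226% of all tested genes were called in either direction (0.120% higher and 0.106% lower). DESeq2's Wald test, which called 2.43% of its genes, also called 0 of the 9. At an unadjusted p under 0.05 edgeR had 1 of the 9, *Egln2*, against 12.9% of all tested genes. The CPM of the genotypes overlapped for all 9 genes, while 3.33% of all tested genes had no overlap. Without the library labelled CKO 3, edgeR and DESeq2 again called 0 of the 9 (background 0.292% and 2.37%), and 0 of the 9 were at an unadjusted p under 0.05 (background 11.4%). Of the fold changes, 5 were positive (*Hif1a*, *Epas1*, *Hif3a*, *Arnt* and *Egln1*) and 4 were negative (*Egln2*, *Egln3*, *Vhl* and *Hif1an*).

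**Figure D1:**
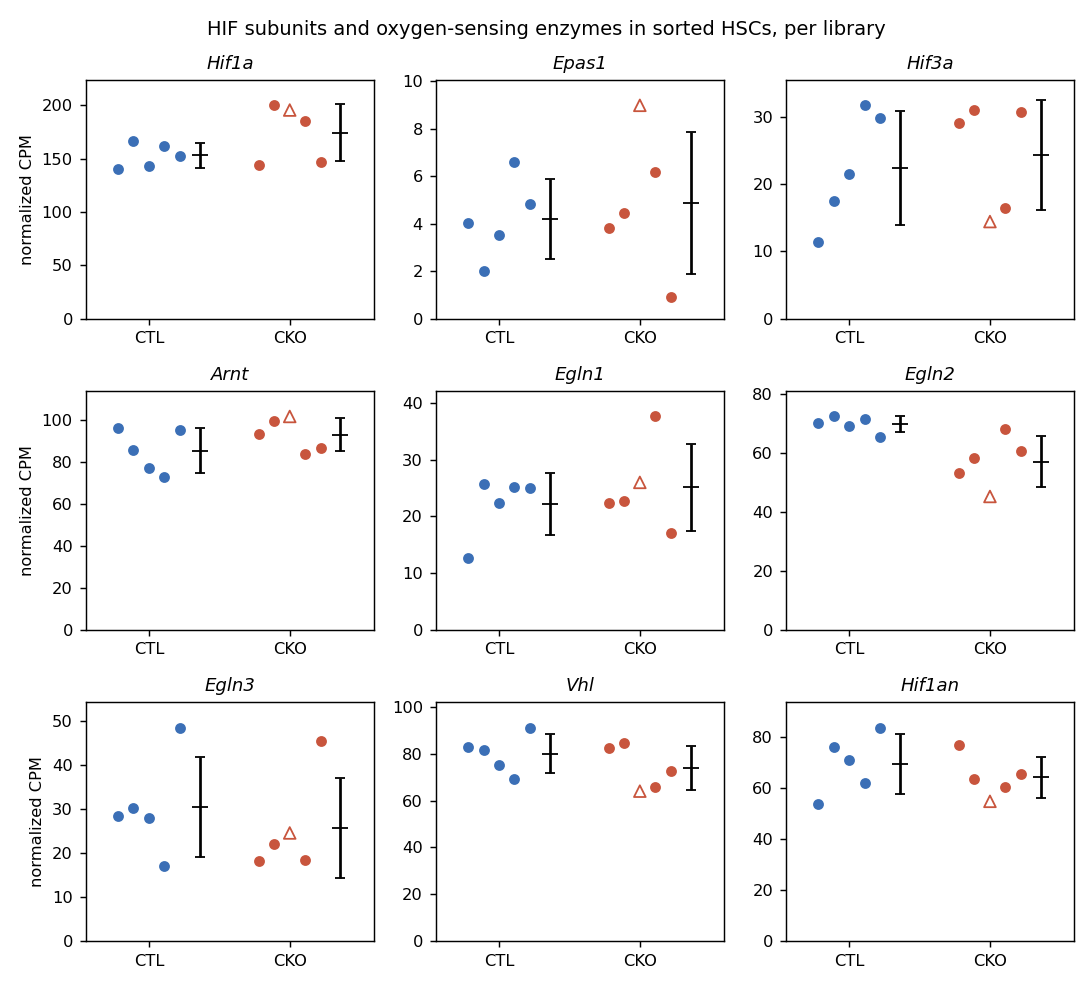
CPM (TMM-scaled, y axis) of each of the 9 genes in the 5 *Cited2* CTL and 5 *Cited2* CKO libraries, with a panel and a y axis of its own for each gene. Points are libraries, the open triangle is the library labelled CKO 3, and bars are mean ± SD. The genotypes overlap in every panel, and the *Egln2* panel shows the tight CTL libraries (65.2 to 72.2 CPM) above 4 of the 5 CKO libraries.

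Of the alpha subunits, *Hif1a* was by far the highest. It lies on chromosome 12 of GRCm38 from 73901375 to 73947530, plus strand, and encodes the oxygen-labile subunit present in most cells. It was expressed at 140.5, 167, 143, 162 and 152 CPM in CTL 1 to CTL 5 and at 144, 199.9, 195, 185 and 147 CPM in CKO 1 to CKO 5. CKO 2, CKO 3 and CKO 4 lay above every CTL library, and CKO 1 and CKO 5 lay within the CTL range. The means were 153.0 ± 11.4 CPM in CTL and 174 ± 26.9 CPM in CKO (SD, n = 5 each). The log2 fold change was 0.19 (standard error 0.10, adjusted p = 0.479, edgeR), with a 95% confidence interval of 0.975-fold to 1.33-fold. Without the library labelled CKO 3 it was 0.14. The longest transcript of *Hif1a* has 41.3% GC, the lowest of the 9 against a median of 48.8% over tested genes, and when each library was corrected for GC content and length of the genes (the GC and length offset) the log2 fold change was 0.026. In the annotation 330 of its exon bases are shared with the antisense gene *Gm15283* and 148 with *Gm49321*, and reads there cannot be assigned with certainty because the use of strand in counting is not given in the sources used here.

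*Epas1* (chromosome 17, 86753700 to 86833410, plus strand) encodes HIF-2 alpha, the subunit best known from endothelium and erythropoietin-producing cells. It had 4 to 38 counts per library, the fewest of the 9 genes. Its level was 4.01, 2.02, 3.53, 6.58 and 4.81 CPM in CTL 1 to CTL 5 and 3.80, 4.45, 8.98, 6.17 and 0.922 CPM in CKO 1 to CKO 5. The lowest and the highest of the 10 values were both CKO libraries. The log2 fold change was 0.21 (standard error 0.57, adjusted p = 0.911, edgeR), and at this depth a difference between 0.495-fold and 2.70-fold, its 95% confidence interval, cannot be told from none. It turned to -0.14 without the library labelled CKO 3, which held the highest value.

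*Hif3a* (chromosome 7, 17031507 to 17062427, minus strand) encodes the third alpha subunit, some of whose isoforms oppose the other alpha subunits. It was expressed at 11.4, 17.4, 21.5, 31.7 and 29.8 CPM in CTL 1 to CTL 5 and at 29.0, 30.9, 14.4, 16.5 and 30.6 CPM in CKO 1 to CKO 5. The spread within each genotype (SD 8.48 and 8.14 CPM) was far larger than the difference of the means, 22.3 and 24.3 CPM. Its log2 fold change was 0.11 (standard error 0.30, adjusted p = 0.907, edgeR), 0.25 without the library labelled CKO 3 and -0.053 without CTL 1.

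Per gene length, the mix of alpha subunit transcripts was nearly the same in both genotypes. *Hif1a* made up 89.2% ± 3.33 of the summed RPKM of the alpha subunits in CTL and 89.1% ± 2.54 in CKO (SD, n = 5 each). *Hif3a* made up 8.69% ± 2.84 and 8.71% ± 3.54, and *Epas1* 2.16% ± 0.770 and 2.15% ± 1.21. These shares are of RNA and not of protein.

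*Arnt* (chromosome 3, 95434388 to 95497240, plus strand), the oxygen-stable partner that every HIF alpha needs to bind DNA, varied least of the HIF subunits among the CKO libraries. It was expressed at 96.3, 85.6, 77.0, 72.6 and 95.4 CPM in CTL 1 to CTL 5 and at 93.2, 99.7, 101.6, 83.8 and 86.6 CPM in CKO 1 to CKO 5. CKO 2 and CKO 3 lay above the CTL range, and the other CKO libraries lay within it. The log2 fold change was 0.12 (standard error 0.10, adjusted p = 0.667, edgeR), with a 95% confidence interval of 0.932-fold to 1.27-fold, and 0.090 without the library labelled CKO 3. Per length, the ratio of *Arnt* to *Hif1a* was 0.612 ± 0.102 in CTL and 0.590 ± 0.0839 in CKO.

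**Figure D2:**
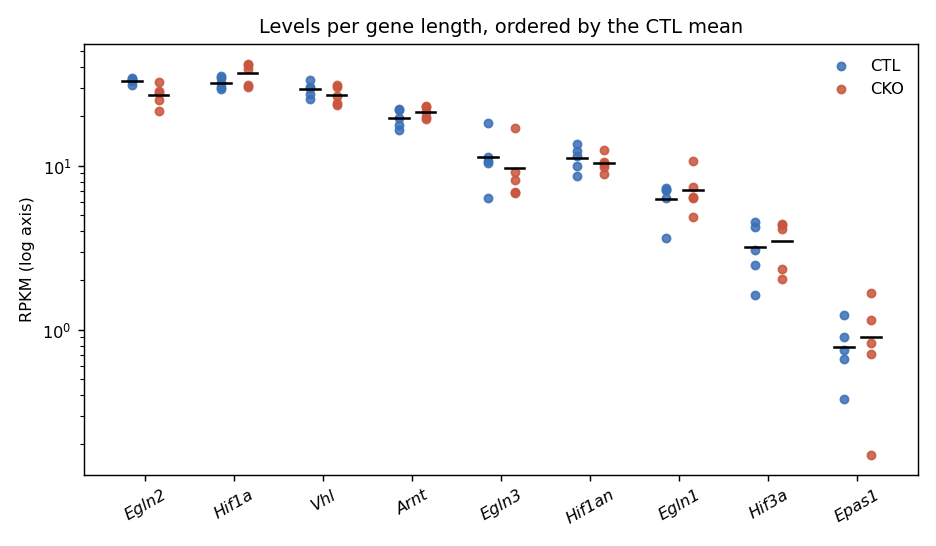
RPKM (log scale) of the 9 genes in each library of both genotypes, ordered by their CTL mean. Points are libraries and bars are the mean of each genotype. *Egln2*, *Hif1a* and *Vhl* form the top group at a CTL mean of 29.3 to 33.0 RPKM and *Epas1* is lowest at 0.783 RPKM, in the same places for both genotypes apart from changes of order within the top group and between *Egln3* and *Hif1an*.

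Of the prolyl hydroxylases, *Egln2* came closest to a difference. It lies on chromosome 7 from 27158658 to 27166802, minus strand, and encodes PHD1, the nuclear prolyl hydroxylase. It was expressed at 69.9, 72.2, 69.1, 71.4 and 65.2 CPM in CTL 1 to CTL 5, the smallest spread of the 9 genes relative to its mean (coefficient of variation 3.93%). It was at 53.0, 58.1, 45.1, 67.9 and 60.6 CPM in CKO 1 to CKO 5, so that 4 of 5 CKO libraries lay below every CTL library and CKO 4 lay among them. The library labelled CKO 3 held the lowest value. The means were 69.6 ± 2.74 and 57.0 ± 8.51 CPM (SD, n = 5 each), and an exact permutation test of the difference (two-sided) gave p = 0.0159, where the smallest p that 5 against 5 libraries allow is 0.00794. This permutation test was run on each of the 9 genes without adjustment. For the others its p ran from 0.143 (*Hif1a*) to 0.738 (*Hif3a*). Across all genes the log2 fold change of *Egln2*, -0.29 (standard error 0.12, 95% confidence interval 0.687-fold to 0.974-fold), did not pass, with an adjusted p of 0.328 in edgeR and 0.255 in DESeq2. Without the library labelled CKO 3 it was -0.22 (unadjusted p = 0.0747, edgeR's quasi-likelihood test). *Egln2* has the highest GC content of the 9, 62.2%, and under the GC and length offset its log2 fold change was -0.054 (adjusted p = 0.978, edgeR). Its exons share 11 bases with *Cyp2t4*, which had a mean of 2.3 counts.

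*Egln1* (chromosome 8, 124908587 to 124949324, minus strand) encodes PHD2, the main HIF prolyl hydroxylase in most cells. It was expressed at 12.7, 25.8, 22.3, 25.1 and 24.9 CPM in CTL 1 to CTL 5 and at 22.3, 22.8, 26.0, 37.6 and 17.1 CPM in CKO 1 to CKO 5. CTL 1 stood below every other library and CKO 4 above every other. The log2 fold change was 0.17 (standard error 0.24, adjusted p = 0.813, edgeR; 95% confidence interval 0.786-fold to 1.62-fold) and depended on these libraries, since it was 0.023 without CTL 1 and -0.020 without CKO 4. It was 0.16 without the library labelled CKO 3. Under the GC and length offset it was 0.38 (adjusted p = 0.813).

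*Egln3* (chromosome 12, 54178981 to 54203860, minus strand) encodes PHD3, a hydroxylase that is strongly induced by hypoxia in many cell types. It was expressed at 28.4, 30.3, 27.9, 17.1 and 48.6 CPM in CTL 1 to CTL 5 and at 18.3, 22.0, 24.6, 18.5 and 45.6 CPM in CKO 1 to CKO 5. CTL 5 and CKO 5 were far above the rest of their genotypes. Its log2 fold change was -0.24 (standard error 0.30, adjusted p = 0.782, edgeR; 95% confidence interval 0.546-fold to 1.32-fold), -0.56 without CKO 5, -0.0039 without CTL 5 and -0.22 without the library labelled CKO 3. Of the summed RPKM of the prolyl hydroxylases, *Egln2* took 65.5% ± 6.44 in CTL and 61.8% ± 4.72 in CKO, *Egln3* took 22.1% ± 6.72 and 21.8% ± 7.58, and *Egln1* took 12.4% ± 2.83 and 16.4% ± 4.54 (SD, n = 5 each).

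*Vhl* (chromosome 6, 113623959 to 113631633, plus strand) was expressed at 82.9, 81.8, 75.3, 69.2 and 91.2 CPM in CTL 1 to CTL 5 and at 82.5, 84.6, 64.1, 65.9 and 72.8 CPM in CKO 1 to CKO 5. CKO 3 and CKO 4 lay below the CTL range and the other CKO libraries within it. The log2 fold change was -0.11 (standard error 0.11, adjusted p = 0.721, edgeR; 95% confidence interval 0.780-fold to 1.09-fold). *Hif1an* (chromosome 19, 44562850 to 44576274, plus strand), which hydroxylates an asparagine in the transactivation domain of HIF alpha, was at 53.8, 76.0, 71.1, 61.9 and 83.8 CPM in CTL 1 to CTL 5 and at 76.8, 63.6, 54.8, 60.6 and 65.7 CPM in CKO 1 to CKO 5. All its CKO values lay within the CTL range. Its log2 fold change was -0.11 (standard error 0.13, adjusted p = 0.775, edgeR; 95% confidence interval 0.757-fold to 1.13-fold), and without the library labelled CKO 3 it was -0.060, against -0.068 for *Vhl*.

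The precision differed widely between the 9 genes. For *Hif1a*, *Arnt*, *Egln2*, *Vhl* and *Hif1an*, with at least 161 counts in every library, the 95% confidence intervals stayed between 0.687-fold and 1.33-fold. For *Egln1*, *Egln3* and *Hif3a* they ran from 0.546-fold to 1.69-fold, and *Epas1* was the least certain.

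**Figure D3:**
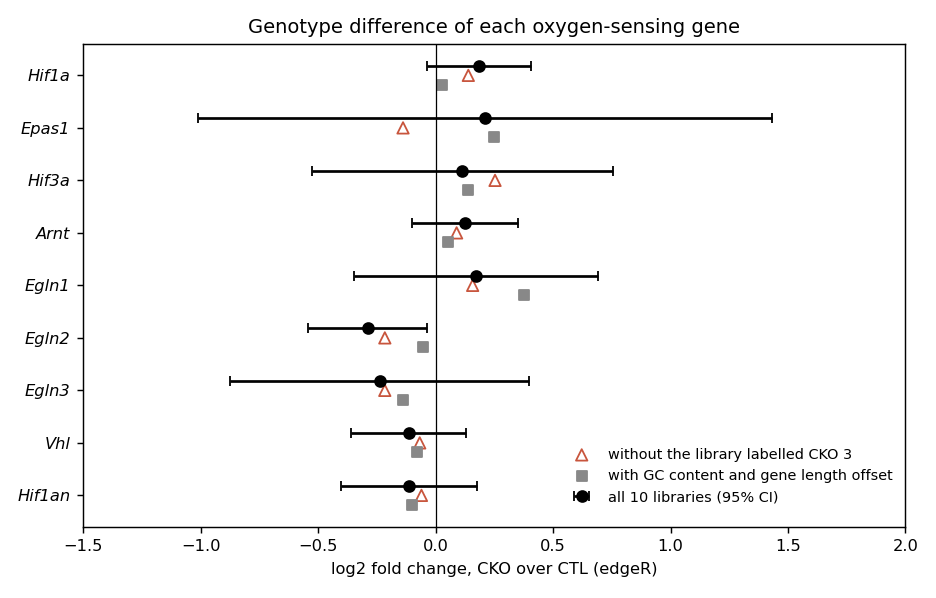
Log2 fold change of each gene, *Cited2* CKO over *Cited2* CTL (x axis), from edgeR with all 10 libraries (black point with 95% confidence interval), without the library labelled CKO 3 (triangle) and under the GC and length offset (grey square). Only the interval of *Egln2* excludes 0 (from 0.687-fold to 0.974-fold), and its offset value of -0.054 lies close to 0.

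Per length, the order of the 9 genes in CTL HSCs was *Egln2* (33.0 ± 1.30 RPKM), *Hif1a* (32.1 ± 2.39), *Vhl* (29.3 ± 3.05), *Arnt* (19.5 ± 2.43), *Egln3* (11.4 ± 4.25), *Hif1an* (11.2 ± 1.90), *Egln1* (6.29 ± 1.55), *Hif3a* (3.18 ± 1.21) and *Epas1* (0.783 ± 0.314, SD, n = 5). The median tested gene was at 15.7 RPKM. Among neighbours in this order, *Vhl* and *Arnt*, *Hif1an* and *Egln1*, and *Hif3a* and *Epas1* had ranges that did not overlap, while the other neighbours overlapped. In CKO HSCs *Hif1a* led with 36.6 ± 5.65 RPKM, followed by *Vhl* at 27.1 ± 3.43, *Egln2* at 27.0 ± 4.04 and *Arnt* at 21.3 ± 1.79. The lower end of the order, *Egln1*, *Hif3a* and *Epas1*, was the same at 7.14 ± 2.18, 3.46 ± 1.16 and 0.909 ± 0.557 RPKM. In both genotypes the prolyl hydroxylase transcript with the highest level was thus *Egln2* and not *Egln1*, whose CTL range lay wholly below that of *Egln2* (3.61 to 7.31 against 30.9 to 34.3 RPKM).

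The machinery around the 9 genes was described with lists that were set with earlier results of these data known, by their counts and medians only. The median log2 fold change over all tested genes was 0.0065, with 7231 positive and 6934 negative. Of the 6 subunits and deubiquitinases of the VHL ligase, all tested, edgeR called 0, with 3 positive and 3 negative and a median of 0.033. The smallest p was that of *Usp20*, a deubiquitinase that can be bound by VHL. It was at 38.8, 35.1, 32.0, 23.9 and 34.4 CPM in CTL 1 to CTL 5 and at 19.97, 21.0, 16.8, 20.9 and 17.5 CPM in CKO 1 to CKO 5, without overlap. Its log2 fold change of -0.77 (standard error 0.17) had an adjusted p of 0.0822 in edgeR, and it was the sole gene of the list at an unadjusted p under 0.05, against 12.9% of all tested genes in either direction. Of all tested genes 3.33% had no overlap. DESeq2 called *Usp20* with all libraries (adjusted p = 0.00586, against 2.43% of genes called) and without the library labelled CKO 3 (adjusted p = 0.0233, against 2.37%). Under the GC and length offset its log2 fold change was -0.59 (adjusted p = 0.514, edgeR). *Usp33*, a related deubiquitinase, was at 118 and 142 CPM (log2 fold change 0.26, adjusted p = 0.393), and *Cul2*, the scaffold of the ligase, at 167 and 178 CPM (0.091, adjusted p = 0.753) in CTL and CKO. With the library labelled CKO 3 left out, the log2 fold changes of *Usp20*, *Usp33* and *Cul2* were -0.72, 0.21 and 0.17, and edgeR called 0 of the list, with 1 at an unadjusted p under 0.05 and a median of 0.033.

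Of 14 factors that affect the stability of HIF alpha proteins, 13 were tested and 0 were called by edgeR or DESeq2, with 0 at an unadjusted p under 0.05 and a median of -0.041. The smallest p-values belonged to *Stub1*, a ubiquitin ligase working with chaperones (170.03 ± 8.48 and 151 ± 15.1 CPM, log2 fold change -0.17), *Limd1*, a scaffold for prolyl hydroxylases and VHL (-0.12), and *Hsp90ab1*, a chaperone of HIF-1 alpha (-0.073), with adjusted p from 0.401 to 0.717. These were -0.14, -0.10 and -0.054 without the library labelled CKO 3, with 0 called, 0 at an unadjusted p under 0.05 and a median of -0.015. Of 15 relatives of the HIF subunits in the bHLH-PAS family, 10 were tested and 0 were called by either tool, with 0 at an unadjusted p under 0.05 and a median of 0.092. The circadian factors *Npas2* (0.82, standard error 0.54, at 2.84 and 5.03 CPM) and *Per3* (-0.16) and the neuronal factor *Npas3* (0.67, at 3.90 and 6.25 CPM) came first by p, with adjusted p from 0.568 to 0.684. *Npas3* depended on the library labelled CKO 3, which had its highest value (14.9 CPM), and its log2 fold change was 0.054 without that library. Those of *Npas2* and *Per3* were then 0.94 and -0.18, and the median of the list turned to -0.023. Again 0 were called, and 1 was at an unadjusted p under 0.05, against 11.4% of all tested genes. This was *Arntl*, a circadian factor named after its values were seen, whose log2 fold change was -0.45 without the library labelled CKO 3 (adjusted p = 0.324, edgeR) and -0.18 with it.

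Other dioxygenases that use oxygen and 2-oxoglutarate, or oxygen with thiols, were compared as relatives of the EGLN enzymes. Of 20 such genes edgeR called 0, with 7 positive and 13 negative, a median of -0.089 and 3 at an unadjusted p under 0.05, all lower, against 7.08% of all tested genes in that direction. These were *Fto*, an RNA demethylase, and the histone demethylases *Kdm4a* and *Kdm4b*. *Fto* was at 114, 116, 110.2, 109.7 and 113 CPM in CTL 1 to CTL 5 and at 90.6, 87.6, 82.5, 99.95 and 90.8 CPM in CKO 1 to CKO 5, without overlap, as for 3.33% of all tested genes. Its log2 fold change was -0.32 (standard error 0.079, adjusted p = 0.117 in edgeR). DESeq2 called it with all libraries (adjusted p = 0.0186, against 2.43% of genes called) and not without the library labelled CKO 3 (adjusted p = 0.0657). *Kdm4a* was at 73.0 ± 15.3 and 50.3 ± 7.12 CPM (log2 fold change -0.54, adjusted p = 0.162, edgeR), and *Kdm4b* at 63.7 ± 14.4 and 35.9 ± 17.2 CPM (-0.83, adjusted p = 0.254). The genotypes overlapped for both. Leaving out the library labelled CKO 3, the log2 fold changes of *Fto*, *Kdm4a* and *Kdm4b* were -0.29, -0.56 and -0.69, and the list had 0 called by edgeR, again 3 at an unadjusted p under 0.05 (against 6.25% of all tested genes) and a median of -0.10.

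HIF targets were the readout furthest downstream. Of 20 glucose transporters and enzymes of glycolysis and of pyruvate use that are known HIF targets, edgeR called 0. Their log2 fold changes were mostly negative, 17 of 20 against 6934 of 14165 for all genes, with a median of -0.14, and 7 were at an unadjusted p under 0.05, all lower, against 7.08% of all tested genes. Without the library labelled CKO 3 the values were 16 of 20, -0.12 and 6 (against 6.25% of all tested genes). The median GC content of these transcripts was 52.7%, above the 48.8% of tested genes. Under the GC and length offset 10 of 20 were negative, the median was -0.00064 and 1 was at an unadjusted p under 0.05. *Aldoc*, an aldolase, was at 67.2, 49.3, 39.98, 39.5 and 45.3 CPM in CTL 1 to CTL 5 and at 21.6, 27.7, 39.2, 23.5 and 33.6 CPM in CKO 1 to CKO 5. The genotypes were separated by a narrow gap, with the library labelled CKO 3 the highest of the CKO libraries. Of all tested genes 3.33% had no overlap, and in this list *Aldoc* and *Aldoa* had none, both lower in CKO. The log2 fold change of *Aldoc* was -0.72 (standard error 0.20, adjusted p = 0.145 in edgeR). DESeq2 called it with all libraries (adjusted p = 0.0369, against 2.43% of genes called). It was also called without the library labelled CKO 3 (adjusted p = 0.00857 in DESeq2, against 2.37%), where the log2 fold change was -0.85. With the offset the log2 fold change of *Aldoc* was -0.64 (adjusted p = 0.522, edgeR). *Pfkl*, a phosphofructokinase (210.1 ± 19.6 and 177 ± 14.5 CPM), and *Aldoa*, the main aldolase (251.8 ± 24.3 and 217 ± 8.94 CPM), had log2 fold changes of -0.25 and -0.21 (adjusted p = 0.235 and 0.246, edgeR), which were -0.25 and -0.21 without the library labelled CKO 3 and -0.028 and -0.0072 with the offset.

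Of 35 HIF targets outside glycolysis, 28 were tested, with 15 positive and 13 negative and a median of 0.021. EdgeR called 1, *Ndrg1*, which fell, against 0.106% of all tested genes called lower. *Ndrg1* encodes a stress-response protein induced by hypoxia in many cells. It was at 308, 286, 300.2, 266 and 256 CPM in CTL 1 to CTL 5 and at 195, 212, 207, 225 and 157 CPM in CKO 1 to CKO 5, without overlap, as for 3.33% of all tested genes. The means were 283 ± 22.0 and 199.0 ± 26.1 CPM (SD, n = 5 each), and the log2 fold change was -0.51 (standard error 0.093, adjusted p = 0.0421 in edgeR and 6.44e-05 in DESeq2). The edgeR call was close to the threshold. It was lost without any of CTL 1, CTL 2, CTL 3, CTL 4, CKO 1, CKO 2, CKO 3 or CKO 5 (adjusted p from 0.0503 to 0.128, log2 fold changes from -0.44 to -0.54) and under the GC and length offset (-0.46, adjusted p = 0.174). Also at an unadjusted p under 0.05, and named after their values were seen, were *Plod2* (27.0 ± 7.19 and 39.7 ± 7.18 CPM, log2 fold change 0.55), *Ero1l* (62.8 ± 4.67 and 74.9 ± 8.19 CPM, 0.25) and *Lonp1* (112 ± 9.48 and 90.8 ± 5.35 CPM, -0.30), with adjusted p of 0.276, 0.341 and 0.168 in edgeR. Of all tested genes 12.9% were at such an unadjusted p in either direction. Of these named genes *Lonp1* also had no overlap between the genotypes. The log2 fold changes without the library labelled CKO 3, for *Ndrg1*, *Plod2*, *Ero1l* and *Lonp1*, were -0.52, 0.46, 0.19 and -0.30, of which *Ero1l* was no longer at an unadjusted p under 0.05. EdgeR then called 0 of the list, and its median turned to -0.028. DESeq2 still called *Ndrg1* without the library labelled CKO 3 (log2 fold change -0.52, adjusted p = 0.000166, against 2.37% of genes called).

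**Figure D4:**
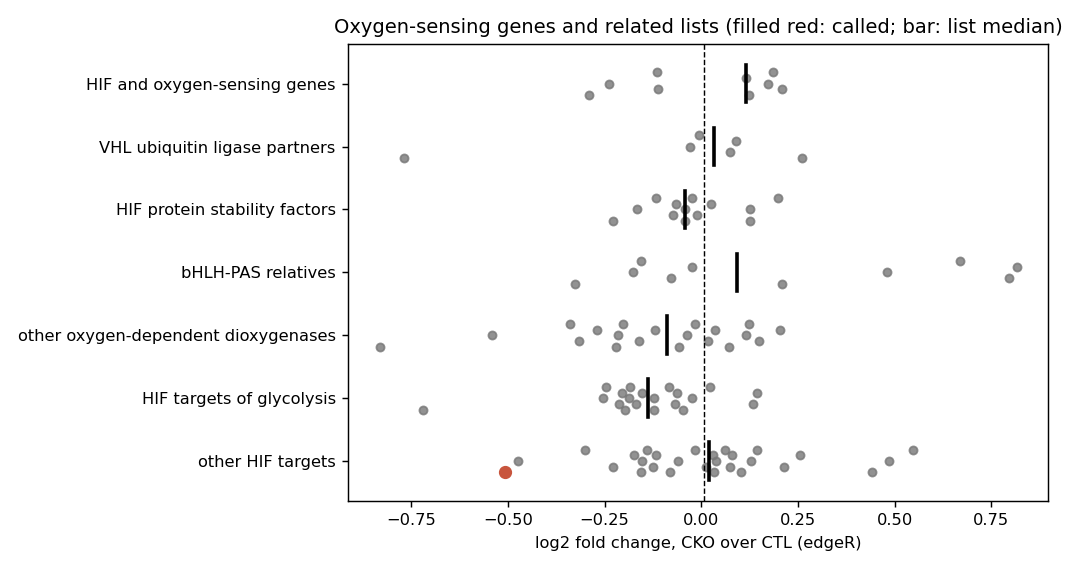
Log2 fold change (*Cited2* CKO over *Cited2* CTL, edgeR, all 10 libraries, x axis) of every tested gene in each list (rows). Points are genes, the filled red point is the gene called by edgeR (*Ndrg1*, -0.51), black bars are list medians, and the dashed line is the median of all tested genes, 0.0065. The glycolysis row lies mostly to the left (17 of 20 genes), and the other rows spread to both sides.

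In the promoter windows of the target lists the ACGTG form of the HIF core was found in 12 of 19 glycolysis genes with a window (63.2%). It was found in 13 of 19 other targets (68.4%), against 28.6% of tested genes and 4 of the 8 genes of the pathway itself. Both lists were chosen as known HIF targets, so these shares describe that choice and are not a test. The part of base composition in them was not tested.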

How the data were processed

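RNA from LSKCD48-CD150+ HSCs of 5 *Cited2* CTL and 5 *Cited2* CKO mice was analysed. The authors used HISAT2 to align the single-end reads to GRCm38 and Rsubread to count them, and deposited raw counts for each gene symbol with gene lengths. The annotation, strand setting and treatment of multiply mapped reads are not given in the sources used here. Groups came from the genotype labels. Totals of 3058690 to 4548795 counts limit genes with few counts, and intervals rest on the spread between these mice only.

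Counts were tested in R 4.3.3 with edgeR 4.0.16 (filterByExpr, TMM, robust quasi-likelihood F test, common biological coefficient of variation 25.3%). RPKM used TMM-scaled totals and the deposited lengths. Scripts were tested on simulated data. Loci came from GENCODE M21 and promoter windows from RefSeq. The offset used GC content of the longest transcript and gene length (loess, span 50%) in each library, and a genotype effect that follows GC content or length would be removed as well.

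The 9 genes and all lists were chosen with earlier results of these data known. Beside the 9 genes and *Cited2*, the text names each called gene of a list, or else the 3 with the smallest p, any gene that DESeq2 called without CKO 3, and for each of the 9 the gene with the most similar profile. *Arntl*, *Ero1l*, *Lonp1* and *Plod2* fall outside this rule and were named after their values were seen. Alternatives were DESeq2 1.42.0 (Wald test, the tool of the study), its size factors, other filters and thresholds, limma-voom (limma 3.58.1), a block for the replicate number, the offset with and without the block, and each library left out in turn. Of the marker genes, 1 is not reported here.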

Additional observations from a re-analysis of the deposited data

Results flagged for a closer look

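Of 20 groups (the 9 genes and *Cited2* in each genotype), 3 held a library far from the other 4 by Dixon's criterion, which chance alone meets in about 1 of 20 groups. *Cited2* stood at 120.1 CPM in the library labelled CKO 3, against at most 8.30 CPM in the other CKO libraries. *Egln1* stood at 12.7 CPM in CTL 1, against 22.3 to 25.8 CPM in the other CTL libraries. *Egln3* stood at 45.6 CPM in CKO 5, against 18.3 to 24.6 CPM in the other CKO libraries.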

How the results depend on the processing

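None of the 9 genes was called in any of 21 alternatives (20 for *Epas1*, which had no value with at least 10 counts in every sample). *Hif1a*, *Arnt*, *Egln2*, *Egln3*, *Vhl* and *Hif1an* kept their direction in all of them. The alternatives that changed only a threshold reused the main fit, so no direction could turn there. An adjusted p under 0.01 could also add no call. The direction turned for *Epas1* with limma-voom (-0.068) and without CKO 3 (-0.14 in edgeR and in DESeq2), for *Hif3a* without CTL 1 (-0.053) and for *Egln1* without CKO 4 (-0.020). Leaving out each library in turn gave -0.14 to 0.47 for *Epas1*, -0.053 to 0.27 for *Hif3a*, -0.020 to 0.28 for *Egln1* and -4.92 to -2.23 for *Cited2*. Among other named genes, *Cul2* turned to -0.044 and -0.070 under the GC and length offset, without and with the replicate block, *Stub1* to 0.049 in both, and *Hsp90ab1* to 0.0022 with the block. *Cited2*, not called in the main fit (-2.51), passed the threshold with limma-voom (-3.99) and without CKO 3 (-4.92 in edgeR, -4.93 in DESeq2).

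Over all genes, 17 were called higher and 15 lower. DESeq2 called 146 and 192, and 164 and 164 without CKO 3. The offset gave 5 and 3, the offset with the replicate block 9 and 3, and an adjusted p under 0.01 gave 5 and 3. The replicate block alone lowered the genes called lower to 9. The labels do not say whether equal numbers pair mice. The correlations of same-numbered libraries were 0.0096, -0.09, 0.21, 0.0027 and 0.19, and 1 of 5 CTL libraries correlated best with its own number. These correlations cannot decide whether the mice were paired. Leaving out 1 library gave 5 to 27 higher genes (27 without CKO 3, at most 9 without CTL 1 to CTL 4, CKO 1, CKO 2 or CKO 5) and 3 to 18 lower genes. Among the other HIF targets, the number called was 0 with either offset, at an adjusted p under 0.01 and without most single libraries (range 0 to 1). In the other HIF targets DESeq2 called 1 gene with all libraries and 1 without CKO 3. DESeq2 also called 1 gene each of the VHL partners, the dioxygenases and the glycolysis list, and without CKO 3 1 each of the VHL partners and the glycolysis list. The cause of these changes was not tested. Depth limits *Epas1* most, with 4 to 38 counts per library.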

Other observations

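The ratio of *Hif1a* to *Egln2* per gene length, chosen from 12 ratios and shares after their values were seen and so given without a test, did not overlap between the genotypes. It was 0.889, 1.02, 0.919, 1.00 and 1.03 in CTL 1 to CTL 5 and 1.201, 1.52, 1.92, 1.21 and 1.07 in CKO 1 to CKO 5. The library labelled CKO 3 had the highest value, and the CKO mean was 1.38 with it and 1.25 without it. How often ratios of other gene pairs show no overlap was not computed, so this separation has no background share. *Hif1a* and *Egln2* have the lowest and the highest GC content of the 9 (41.3% and 62.2%). Their log2 fold changes were 0.19 and -0.29 in the main fit, and 0.026 and -0.054 under the GC and length offset. The ratio was not computed under the offset, and the part of GC content in it was not tested.

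After each genotype's mean was subtracted, the genes most similar to the 9 across the 10 libraries, by Pearson's r of log2 CPM, were *Tbx22* for *Hif1a* (0.95), *Espn* for *Epas1* (0.95), *Baz2b* for *Hif3a* (0.96), *Ncapd3* for *Arnt* (0.92), *AW146154* for *Egln1* (0.96), *Alyref2* for *Egln2* (0.94), *Gsk3b* for *Egln3* (0.96), *Zkscan6* for *Vhl* (0.99) and *Dip2b* for *Hif1an* (0.93). Each is the highest of 14165 genes over 10 libraries and is a description only. Without CKO 3 the value of *Egln2* with *Alyref2* was 0.86, and those of the other pairs ran from 0.92 to 0.99. The part of depth and base composition in these values was not tested. Among the 9 genes themselves the highest values were those of *Hif3a* with *Hif1an* (0.62, and 0.54 without CKO 3), *Arnt* with *Vhl* (0.59, and 0.86) and *Hif1a* with *Egln1* (0.57, and 0.59). The lowest was that of *Epas1* with *Egln3* (-0.58, and -0.67 without CKO 3). Some other pairs also depended on this library, such as *Egln2* with *Vhl* (-0.041, and -0.61 without CKO 3) and *Egln2* with *Hif1an* (0.0092, and -0.44).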
